A study of Mus musculus with 17 samples.

Results

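KL tumor cells were set against KL monocyte-derived macrophages (MDMs), with 2 bulk RNA sequencing libraries of each, 4 of the 17 samples of a series on mouse lung tumors. Both populations came from mice of the genotype called KL. In these mice the Cre recombinase removes Lkb1 (Lkb1fl/fl), a kinase gene listed under its symbol Stk11. Ad-Cre, a Cre-carrying adenovirus, was given through the nose and was followed by tamoxifen, and the labels give 10 weeks for the time of sampling. KLG4 mice carry in addition a Gpx4 allele (Gpx4m/m) that a second recombinase removes once Cre has switched it on and tamoxifen has activated it. KL mice lack that allele, so tamoxifen is common to all 4 libraries and Gpx4 is not a target in any of them. Mice were 8 to 10 weeks old at infection, and no cell type promoter is named for Ad-Cre. Tumor cells were sorted as CD45- CD31- EpCAM+ cells. The tumor cell libraries are described as 2 mice a group. The gate for MDMs and the number of animals behind the MDM libraries are not given in the sources used here, so the spread between those libraries may be technical.

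Members were the genes that the 2 deposited tables share by name, with at least 1 RPKM (reads scaled to gene length and library size) in at least 2 of the 4 libraries. This gave 11319 genes of 12570 shared, and 1251 lay below. At the edge of this limit, Qrsl1 was kept with deposited values of 1.00 and 1.07 RPKM in tumor cells and Dgkq was left out with 0.998 RPKM as its second highest value. A gene under 1 RPKM in both libraries of 1 population passed only through the other, so its direction was close to fixed. Counts over lists that hold such genes were in part set in advance. Each library was rescaled to the same sum of RPKM outside mitochondrial genes, by factors between 0.952 and 1.05, and values below are on that scale unless called deposited. A difference is the mean log2(RPKM + 0.1) of tumor cells minus that of MDMs, a scale that understates the change of low genes. A gene is called at an adjusted p under 0.05 in limma, a linear model with a shared estimate of spread, with Benjamini-Hochberg adjustment over the 11319 genes.

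Lung adenocarcinoma that lacks LKB1 grows from epithelial cells of the distal lung, which make surfactant and are held together by cadherin and claudin junctions. Macrophages of tumors arise in part from blood monocytes, which enter the tissue, sense microbial and damage signals through Toll-like and Fc receptors, engulf dying cells and release cytokines. Epithelial identity rests on forkhead, NKX2 and ELF factors and myeloid identity on the ETS factor PU.1, encoded by Spi1.

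The libraries were checked against their labels first. Read totals recovered from the tables, in megareads (M), were 36.6 and 30.2 for tumor cells, and 18.6 and 10.4 for MDMs. Tumor cells held the epithelial lists. The summed level of the pan-epithelial markers with a row was 8722 and 7065 RPKM in tumor cells and 79.3 and 258 RPKM in MDMs, and the pan-leukocyte sum was 23.97 and 36.2 RPKM against 1203 and 856 RPKM. All 10 pan-leukocyte and all 10 pan-macrophage markers were called higher in MDMs (19.4% of all genes tested were), as were 6 of 7 tested markers of monocyte-derived macrophages, of which Cd72 was not called. Tumor cell libraries also held markers of several lung epithelial types. The gate rests on CD45, CD31 and EpCAM and does not set tumor cells apart from other epithelial cells. Tumor cells below therefore stands for the libraries with that label. The AT2 list was called higher in tumor cells in 10 of 10 members (32.4% of all genes tested were) and the AT1 list in 7 of 8. The club cell list was so in 4 of 4 tested and the ciliated cell list in 3 of 3 tested. Muc5b of the former and Ccdc39 of the latter were under 1 RPKM in both MDM libraries and passed the limit only through tumor cells. Hopx, Rtkn2 and Akap5 (AT1) and Napsa (AT2) lost their calls when a library was left out. Foxj1, the regulator of ciliated cells, was at 16.2 and 21.2 RPKM (deposited) in the tumor cell table only. Epcam, Ptprc (which encodes CD45) and Pecam1 (CD31) code for the proteins of the tumor cell gate, so their levels are no independent check of the label.

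The MDM libraries went against their label in part. Neutrophil markers took a sum of 24118 and 10207 RPKM in MDMs, against 603 and 609 RPKM in tumor cells. In deposited RPKM the sum was 23463 and 10719 in MDMs and between 153 and 239 in tissue-resident macrophages (TRMs) of KL mice. S100a9, a chain of calprotectin, was at 21694 and 8931 RPKM and S100a8 at 1532 and 766 RPKM in MDMs, and Ly6g, which has no row in the tumor cell table, was at 7.32 and 5.52 RPKM (deposited). The list of monocyte-derived macrophages summed to 56.4 and 289 RPKM. The alveolar macrophage list summed to 1309 and 2216 RPKM. MDMs below therefore stands for the libraries with that label and not for a pure cell type. Of 9 tested neutrophil markers, 7 were called higher in MDMs (background 19.4%) and Ltf, the lactoferrin gene that glands also express, in tumor cells (428 and 321 against 35.8 and 24.5 RPKM). The endothelial list summed to 8.87 and 6.18 RPKM in tumor cells and 21.8 and 39.7 RPKM in MDMs. Neutrophil transcripts were higher in the same libraries as every gene group that was higher in MDMs, and their part in those results was not tested. From MDM replicate 1 to replicate 2 the neutrophil sum fell, whereas the sums of monocyte-derived and alveolar macrophage markers rose.

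**Figure D1:**
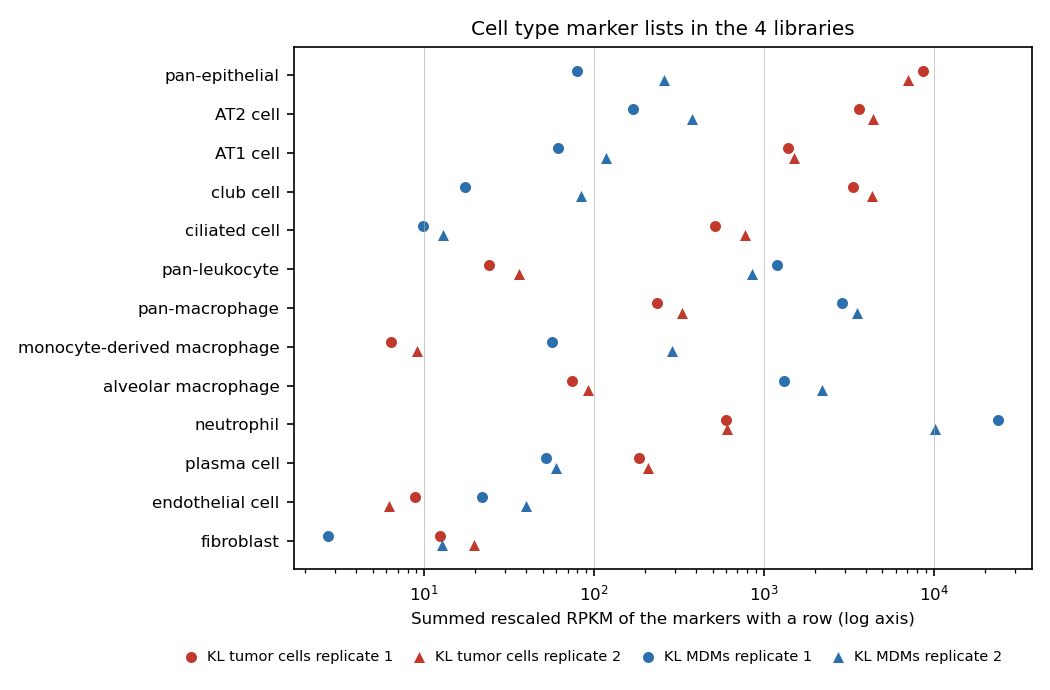
Summed rescaled RPKM (log axis) of the members of 13 cell type marker lists that have a row, for each of the 4 libraries, circles for replicate 1 and triangles for replicate 2. Epithelial lists lie to the right in tumor cells (pan-epithelial 8722 and 7065 RPKM), whereas the neutrophil list is the highest sum of the MDM libraries (24118 and 10207 RPKM).

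MDM replicate 2 stood apart from MDM replicate 1. C1qa, the first chain of the complement protein C1q, was at 16.4 and 88.2 RPKM, Cx3cr1, the fractalkine receptor of monocytes, at 5.21 and 39.97 RPKM and Apoe at 409 and 1975 RPKM in replicates 1 and 2. Pan-epithelial and AT2 sums were also higher in replicate 2, whereas the interferon-stimulated genes Isg15 and Rsad2 were higher in replicate 1. Across the tested genes the correlation of log2 levels was 0.983 between the tumor cell libraries and 0.935 between the MDM libraries, across genes, which are not replicates. In bulk libraries fewer cells of a type and less RNA per cell cannot be told apart, and population and deposited table cannot be told apart either, since each population has its own table.

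The populations differed across a large part of the transcriptome. Of the 11319 genes, 3669 (32.4%) were called higher in tumor cells and 2196 (19.4%) higher in MDMs, 51.8% in all. MDM-higher genes reached further. Of the genes called at least 16-fold apart, 268 were higher in tumor cells and 519 in MDMs, and at 64-fold the numbers were 19 and 90. The median difference of all genes was 0.47 on the log2 scale. Relative to that median, 2125 genes (18.8%) were higher in tumor cells and 2941 (26.0%) in MDMs, so that tumor-higher genes made up 62.6% of calls before and 41.9% after centring. Over 8 ways to scale the libraries, 2034 tumor-higher and 2113 MDM-higher calls were made each time, and none took the opposite direction in any of them. When each of the 4 libraries was left out in turn, 986 tumor-higher and 1189 MDM-higher genes were called each time. The number of calls was lowest without tumor cell replicate 1 (2512) or replicate 2 (2539), and it was 6174 without MDM replicate 1 and 7451 without MDM replicate 2. Genes described below were called under all 8 scalings and without each library unless stated. With 2 libraries a group, no exact permutation test of a single gene could go below a two-sided p of 0.333.

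**Figure D2:**
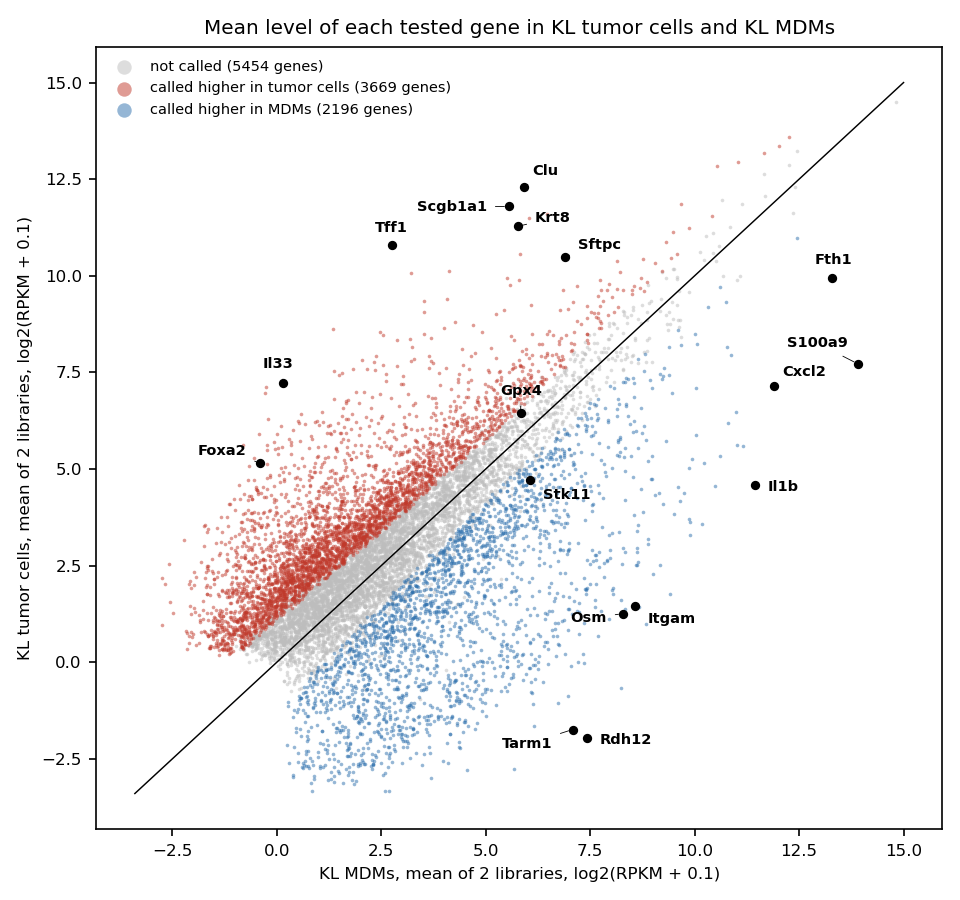
Mean log2(RPKM + 0.1) of each of the 11319 genes in the 2 KL MDM libraries (horizontal axis) and the 2 KL tumor cell libraries (vertical axis), with the line of equal level. Red points are the 3669 genes called higher in tumor cells and blue points the 2196 called higher in MDMs, whose cloud reaches further from the line, down to Rdh12 and Tarm1.

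Stk11, the gene that Cre removes in the model, was read as a total over all exons, which does not separate its floxed exons from the rest. Stk11 (chromosome 10, 80115803 to 80130682) was at 25.2 and 27.1 RPKM in tumor cells and 64.01 and 69.1 RPKM in MDMs, with both tumor cell libraries below both MDM libraries. Its log2 difference was -1.34 (SE 0.26, adjusted p 0.00605 in limma), a call that was lost without either tumor cell library, with an adjusted p of up to 0.0886. Gpx4 (chromosome 10, 80047166 to 80056439), the glutathione peroxidase that reduces lipid peroxides, was at 92.4 and 80.9 RPKM in tumor cells and 46.1 and 67.9 RPKM in MDMs and was not called (log2 difference 0.63, adjusted p 0.119 in limma). It was called higher in tumor cells without MDM replicate 2 (adjusted p 0.0130 in limma) and when all 12 libraries shared 1 estimate of spread.

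The genes furthest above MDMs in tumor cells coded for secreted airway and stomach-type proteins, keratins and an alarmin. Tff1, a trefoil peptide of mucus best known from the stomach, was at 2081 and 1488 RPKM in tumor cells and 2.55 and 10.8 RPKM in MDMs, which is a 268-fold ratio of means and a log2 difference of 8.36 (SE 0.62, adjusted p 0.000223 in limma). Dpcr1, a mucin-like gene of the MHC region, was at 1057 and 1109 against 0.806 and 17.5 RPKM. In both genes MDM replicate 2 was several times above replicate 1, and both stayed far under every tumor cell library. Il33, an alarmin that epithelial cells keep in the nucleus and release on damage, was at 164 and 137 against 0.499 and 1.53 RPKM (log2 difference 7.25). Scgb1a1, the main secretoglobin of club cells, was at 3044 and 4053 against 14.2 and 79.04 RPKM. Clu, the extracellular chaperone clusterin and the highest gene of the tumor cell libraries outside mitochondrial and predicted (Gm) genes, was at 5236 and 4769.8 against 34.8 and 86.03 RPKM. None of these groups overlapped, as was so for tumor cells above MDMs in 51.7% of all genes.

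The other genes of this rank were keratins, a homeobox factor and membrane or adaptor proteins. Krt23 was at 477 and 314 RPKM in tumor cells and 1.27 and 3.64 RPKM in MDMs, and Krt19, a keratin of simple epithelia, at 1262 and 964 against 6.21 and 28.2 RPKM. The homeobox gene Irx3 was at 153 and 126 against 0.601 and 0.864 RPKM (log2 difference 7.40). Ptprn, a phosphatase-like protein of secretory granules, was at 124 and 127 against 0.4301 and 1.02 RPKM, and Ttc9 at 74.7 and 82.1 against 0.814 and 0.719 RPKM. In all of these but Ttc9, MDM replicate 2 held more of the tumor-cell transcript than replicate 1.

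The 10 genes furthest on the MDM side included receptors of myeloid cells, a phagocyte oxidase subunit and 2 metabolic enzymes. Rdh12, a retinol dehydrogenase, was at 0.0806 and 0.235 RPKM in tumor cells and 126 and 218 RPKM in MDMs, the widest difference of all (log2 difference -9.39, SE 0.45, adjusted p 0.0001999 in limma). Tarm1, a receptor found on activated myeloid cells, was at 0.0772 and 0.3203 against 185 and 84.97 RPKM, and Cd300lf, an inhibitory receptor of myeloid cells, at 2.36 and 4.24 against 953 and 416 RPKM. Tumor cell libraries held a few RPKM of these or less, and the MDM libraries many times more. Itgam, the CD11b chain of the complement receptor CR3, was at 1.64 and 3.64 against 461 and 301 RPKM (log2 difference -7.19). Ncf4, a subunit of the phagocyte NADPH oxidase, was at 0.487 and 1.19 against 162 and 100.2 RPKM. Hk3, the hexokinase of myeloid cells, was at 0.1299 and 0.615 against 100.1 and 38.9 RPKM. Tumor cell replicate 2 held more than replicate 1 of each of these but stayed far below both MDM libraries.

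Stfa2l1, one of the stefin A cluster genes that neutrophils express, was at 1.99 and 3.196 RPKM in tumor cells against 498 and 309 RPKM in MDMs, and Slfn1, a Schlafen gene, at 0.599 and 1.18 against 253 and 73.6 RPKM. H2-M2, a nonclassical MHC class I gene, was at 0.394 and 0.494 against 149.9 and 101 RPKM. Ms4a4a was at 0.0954 and 0 RPKM in tumor cells, listed at 0 in replicate 2, and at 11.1 and 91.5 RPKM in MDMs. Stefin A genes have near-identical copies, so reads could be split among them.

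**Figure D3:**
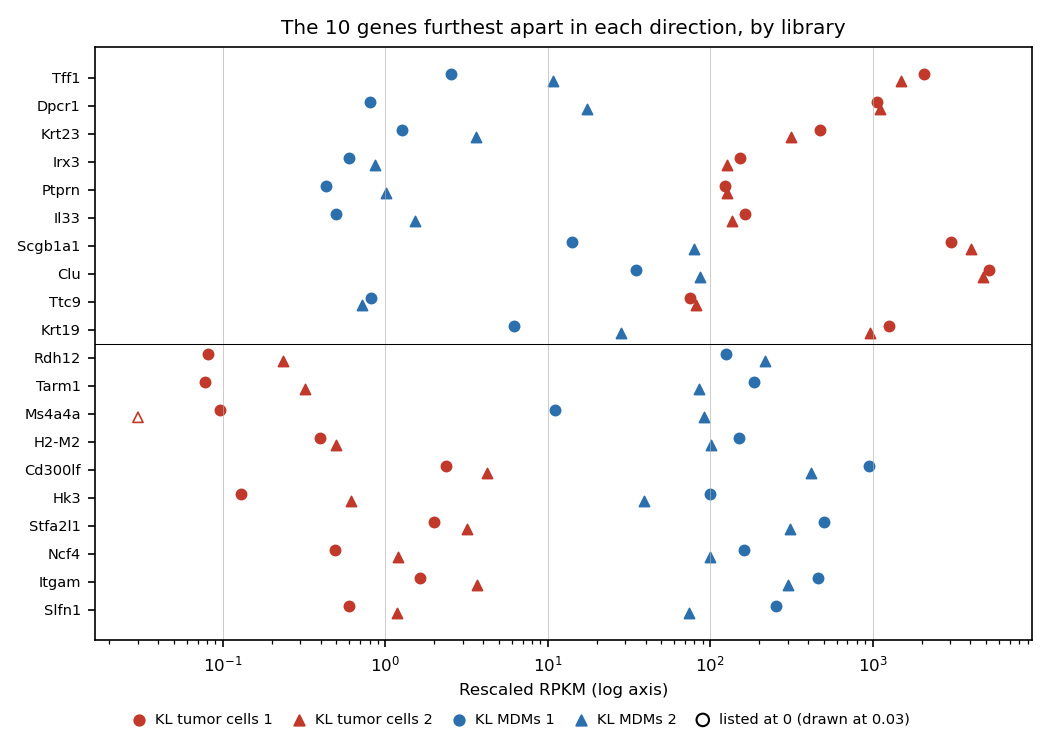
Rescaled RPKM (log axis) of the 10 genes furthest apart in each direction, one row a gene, red for the 2 tumor cell libraries and blue for the 2 MDM libraries. In the upper 10 rows both red points lie to the right of both blue points, and in the lower 10 the order is turned, with Rdh12 at 0.0806 and 0.235 RPKM in tumor cells and 126 and 218 RPKM in MDMs, and the open symbol marks a library listed at 0.

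The most abundant transcripts also set the populations apart. In tumor cells, Krt18 was at 3277 and 2528 RPKM and Krt8, its partner in simple epithelia, at 2674 and 2304 RPKM, against 31.2 and 99.4 RPKM and 24.1 and 85.2 RPKM in MDMs. Sfn, the epithelial 14-3-3 protein stratifin, was at 3190.0 and 3038 against 59.4 and 116 RPKM. The chaperone gene Hsp90ab1 was called higher in tumor cells at 3622 and 3747 against 598 and 1044 RPKM. Of the general cell genes among the highest in tumor cells, Ubb (ubiquitin) was at 2546 and 2332 against 1879 and 1827 RPKM and Myl6 at 2163 and 2003 against 976 and 1499.9 RPKM, and neither was called. Ptma and Ezr were called higher in tumor cells at 3056 and 2901 against 912 and 1839.5 RPKM and 2394 and 2417 against 988 and 879 RPKM. The call of Ptma was lost under 7 of the 8 scalings and without any library but MDM replicate 2, with an adjusted p of up to 0.234. That of Ezr was lost under 2 scalings and without either tumor cell library, with an adjusted p of up to 0.1203.

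In the MDM libraries S100a9 was followed by Fth1, the ferritin heavy chain that stores iron, at 12480.1 and 7429 against 1032 and 928 RPKM in tumor cells. Cxcl2, a chemokine that draws neutrophils, was at 4420.1 and 3162 against 95.95 and 187 RPKM, and the cytokine gene Il1b at 2519 and 3085 against 15.3 and 32.9 RPKM. Ccl6, a chemokine of myeloid cells, was at 2276 and 2313 against 32.2 and 64.5 RPKM. Lilrb4a, an inhibitory receptor, was at 2329 and 1831 against 28.9 and 68.4 RPKM, and Rnf149, a ubiquitin ligase of membranes, at 2112 and 1946 against 85.7 and 91.5 RPKM. Lyz2, the myeloid lysozyme that AT2 cells also make, was at 1268 and 2472 RPKM in MDMs and 208 and 283 RPKM in tumor cells, only 7.62-fold apart by the ratio of means. The annotated transcript AY036118 was at 1493 and 1939.5 against 612 and 660.4 RPKM, and its call was lost without either tumor cell library, with an adjusted p of up to 0.126.

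Lineage regulators and junction genes were higher in tumor cells almost without exception. Of 18 lineage regulators of lung and stomach, 10 were tested, all 10 were called higher in tumor cells (background 32.4%) and the median difference was 4.33, against 0.47 over all genes. Members under 1 RPKM in both MDM libraries, such as Foxa2, passed the limit only through tumor cells, so their direction was close to fixed. Foxa2, a forkhead factor of lung epithelium, was at 35.00 and 36.00 RPKM in tumor cells and 0.467 and 0.852 RPKM in MDMs (log2 difference 5.60). Elf3, an epithelial ETS factor, was at 213 and 175 against 2.75 and 4.098 RPKM, and Klf5 at 38.9 and 39.4 against 1.38 and 1.44 RPKM. Hnf4a, the factor of gut and liver epithelium, was at 13.97 and 10.1 against 0.206 and 1.06 RPKM, so that transcripts of lung and of gut-type regulators stood in the same libraries. The other 8 regulators have no row in the MDM table, among them Nkx2-1, the main factor of lung identity, at 16.02 and 18.8 RPKM (deposited) in tumor cells, Sox2 at 4.501 and 6.204 RPKM and Sox9 at 10.2 and 9.35 RPKM. Etv5 and Hopx, also among the 10, lost their calls without tumor cell replicate 2 (adjusted p 0.0602 and 0.0628 in limma).

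Among 16 tested genes of junctions and keratins, 15 were higher in tumor cells (background 32.4%) and 14 of them without each library as well (median difference 5.02). Cldn18, a claudin of lung and stomach, was at 53.6 and 65.8 RPKM in tumor cells and 0.547 and 0.741 RPKM in MDMs, the widest difference among claudins (log2 6.33). Cdh1, which encodes E-cadherin, was at 214 and 229 against 5.74 and 12.7 RPKM. Krt7 was at 378 and 325 against 3.08 and 8.34 RPKM. Cldn1 went the other way, at 0.0655 and 0.408 RPKM in tumor cells and 5.099 and 2.54 RPKM in MDMs (log2 difference -3.68, adjusted p 0.00388 in limma). Among the AT1 markers, Pdpn (podoplanin, which macrophages and lymphatic vessels also express) did so too, at 4.403 and 4.18 against 16.00 and 24.3 RPKM.

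Feedback genes of RAS signalling were among those higher in tumor cells. Of 15 tested genes of RAS output and the LKB1 kinase, 7 were called higher in tumor cells (background 32.4%) and 2 in MDMs (background 19.4%). Dusp4, a phosphatase that ERK induces and that switches ERK off, was at 46.5 and 51.4 against 2.97 and 4.15 RPKM, and Spry2, a Sprouty inhibitor of the pathway, at 22.9 and 32.4 against 1.54 and 1.805 RPKM. Phlda1 was at 361 and 360.0 against 82.5 and 56.02 RPKM. These 3 and Spred1 were called without each library. Cab39, a partner of LKB1, was at 18.96 and 20.7 against 18.3 and 17.2 RPKM and was not called.

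Spi1, which encodes the myeloid factor PU.1, was higher in MDMs, at 1.63 and 3.14 RPKM in tumor cells and 96.00 and 97.2 RPKM in MDMs (log2 difference -5.35, SE 0.37, adjusted p 0.000205 in limma). Of 14 tested myeloid transcription factors, 7 were higher in MDMs (background 19.4%), none in tumor cells (background 32.4%) and 7 were not called. Pparg, the factor of alveolar macrophages that AT2 cells express as well, was at 7.96 and 4.73 RPKM in tumor cells and 4.05 and 10.6 RPKM in MDMs, with overlapping groups, and was not called.

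Fc receptors and their adaptors were among the widest groups. Of 11 members, 10 were higher in MDMs (background 19.4%), 9 of them without each library, with a list median of -5.28. Fcgr3, an activating IgG receptor, was at 2.28 and 5.597 RPKM in tumor cells and 210.3 and 152 RPKM in MDMs, and Fcgr2b, the inhibitory one, at 0.335 and 0.9804 against 52.1 and 44.6 RPKM. Syk, the kinase behind these receptors, was at 1.73 and 4.58 against 126 and 103 RPKM. Fcgrt, the neonatal Fc receptor, was called (1.29 and 1.51 against 3.03 and 12.7 RPKM), but not without either tumor cell library, with an adjusted p of up to 0.137. Pigr, the epithelial receptor that carries IgA and IgM across the cell layer, was the one member higher in tumor cells, at 38.4 and 40.1 against 1.899 and 2.599 RPKM (log2 difference 4.08).

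All but 1 of 14 tested pattern recognition genes were higher in MDMs (background 19.4%), and these 13 were called without each library. Clec7a, the glucan receptor dectin-1, was at 5.48 and 12.5 RPKM in tumor cells and 489 and 449 RPKM in MDMs. Cd14, the co-receptor for endotoxin, was at 13.9 and 20.3 against 746 and 456 RPKM and Tlr2 at 0.688 and 1.57 against 47.4 and 35.2 RPKM. The inflammasome sensor Nlrp3 was at 4.32 and 12.5 against 129 and 166 RPKM. Ly96, the MD-2 partner of TLR4, was not called, with all 4 libraries between 1.64 and 2.50 RPKM.

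Of 16 tested complement genes, 9 were higher in MDMs (background 19.4%), 7 of them without each library, and 2 in tumor cells (background 32.4%), 1 of them under all scalings and without each library. C1qb was at 13.5 and 67.8 RPKM in MDMs and 0.4397 and 1.22 RPKM in tumor cells, with the MDM libraries far apart, and the receptor C5ar1 was at 22.6 and 13.7 against 0.124 and 0.434 RPKM. Cfp, which encodes properdin, was at 18.9 and 22.8 against 0.658 and 1.22 RPKM. C3 was at 511 and 134 RPKM in MDMs and 33.1 and 60.7 RPKM in tumor cells, a call lost without tumor cell replicate 1 (adjusted p 0.0933 in limma). On the tumor cell side, Cd55, which shields cells from complement, was at 39.3 and 39.5 against 2.62 and 2.38 RPKM (log2 difference 3.92). Serping1, the C1 inhibitor, was at 3.73 and 6.53 against 0.595 and 1.97 RPKM, but its call was lost without either tumor cell library (adjusted p of up to 0.172 in limma) and under 2 scalings.

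Antigen presentation was higher in MDMs by smaller steps. Of 7 tested MHC class II genes, 6 were called (background 19.4%, median -2.28). H2-Eb1 was at 163 and 422 RPKM in MDMs and 30.5 and 49.97 RPKM in tumor cells and H2-Aa at 22.9 and 61.7 against 7.11 and 7.75 RPKM, and these 2 calls were made without each library. Tumor cells were not devoid of the pathway. H2-Ab1 was at 102 and 147 RPKM there, against 377 and 1021 RPKM in MDMs (not called without tumor cell replicate 1, adjusted p 0.06801 in limma), and Cd74, the invariant chain, at 197 and 238 against 319 and 693 RPKM, which was not called (adjusted p 0.0558 in limma) but was called under 4 of the 8 scalings and without MDM replicate 1. Of 13 class I and immunoproteasome genes, 10 were higher in MDMs (background 19.4%), and 3 of these without each library, namely B2m at 624 and 294 against 54.6 and 52.3 RPKM, Psmb8 at 68.5 and 32.97 against 7.56 and 8.55 RPKM and Psmb9 at 12.3 and 4.39 against 0.6102 and 0.771 RPKM.

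Interferon-stimulated genes were called higher in MDMs in 12 of 16 (background 19.4%), and in 4 of these without each library (Isg15, Oasl2, Rsad2 and Irf7). Isg15 was at 208 and 43.6 RPKM in MDM replicates 1 and 2 and 6.61 and 8.01 RPKM in tumor cells, and Rsad2, the antiviral protein viperin, at 82.96 and 7.42 against 0.289 and 0.708 RPKM. Both genes were several times higher in MDM replicate 1 than in replicate 2.

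Cytokine genes were mostly MDM-higher, and Il33 was the one tumor-higher member. Of 12 tested, 10 were called higher in MDMs (background 19.4%), 9 without each library. Il1b had a log2 difference of -6.95 and Osm, which encodes oncostatin M, of -7.09, with Osm at 342 and 278 RPKM in MDMs and 1.53 and 3.03 RPKM in tumor cells. Csf1, the growth factor of macrophages, was at 132 and 47.6 RPKM in the MDM libraries and 0.674 and 1.07 RPKM in tumor cells. Il1rn, the antagonist of the IL-1 receptor, was at 527 and 259 against 3.67 and 7.59 RPKM. Csf2, which encodes GM-CSF, has no row in the MDM table and was at 32.3 and 16.2 RPKM (deposited) in tumor cells. Il6 was low in all 4 libraries, between 2.87 and 7.05 RPKM, and was not called.

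Of 15 tested chemokines, 11 were higher in MDMs (background 19.4%), 9 of them without each library, and 1 in tumor cells (background 32.4%). Ccl9 was at 86.6 and 116 RPKM in MDMs and 1.27 and 2.14 RPKM in tumor cells and Ccl4 at 138 and 41.9 against 0.403 and 1.95 RPKM. Cxcl9, a chemokine that draws T cells, was at 22.1 and 12.8 against 0.123 and 0.231 RPKM, and Ccl24, an eotaxin, was listed at 0 in both libraries of tumor cells while MDMs held 5.56 and 7.09 RPKM. Cxcl15, lungkine, was the tumor-higher one at 79.9 and 84.3 against 5.73 and 14.1 RPKM. Cxcl16 was not called, at 61.5 and 52.1 against 29.6 and 46.8 RPKM. Of 7 tested chemokine receptors, 6 were higher in MDMs (background 19.4%), without each library too. Ccr1 was at 77.6 and 77.3 against 0.638 and 1.38 RPKM. Cxcr2, the receptor of neutrophils for Cxcl2, was at 93.7 and 58.4 against 0.8197 and 0.983 RPKM, whereas Ccr2, the receptor of classical monocytes, was at 1.34 and 8.28 against 0.0315 and 0.0927 RPKM.

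Checkpoint genes lay on the MDM side in 11 of 15 tested (background 19.4%, median -5.09), 10 of them without each library. Cd274, which encodes PD-L1, was at 901 and 127 RPKM in MDMs and 2.796 and 6.69 RPKM in tumor cells (log2 difference -6.25, SE 0.87, adjusted p 0.00161 in limma). MDM replicate 2 was far below replicate 1 but well above both tumor cell libraries. Cd80 was at 25.98 and 21.3 against 0.125 and 0.307 RPKM, Vsir (VISTA) at 41.5 and 28.4 against 0.339 and 0.674 RPKM and Siglece at 33.8 and 20.9 against 0.172 and 0.301 RPKM. Havcr2, which encodes TIM-3, was at 57.2 and 56.6 against 1.35 and 2.69 RPKM. Nectin2, a ligand of TIGIT and DNAM-1, was higher in tumor cells at 47.9 and 47.4 against 1.05 and 2.73 RPKM. Pvr, a ligand of the same receptors, was at 10.3 and 12.1 against 2.23 and 4.02 RPKM, with a call lost without either tumor cell library (adjusted p of up to 0.08198 in limma).

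Among 10 tested scavenger and efferocytosis genes, 7 were higher in MDMs (background 19.4%) and 3 in tumor cells (background 32.4%), of which 6 and none were called without each library. Msr1, a scavenger receptor, was at 6.33 and 17.5 RPKM in MDMs and 0.168 and 0.395 RPKM in tumor cells, and Mertk, a receptor for dying cells, at 5.07 and 9.16 against 0.429 and 0.827 RPKM. The lipid receptor Cd36 was on the tumor cell side, at 54.1 and 82.7 against 19.5 and 27.3 RPKM, though it was not called without tumor cell replicate 2 (adjusted p 0.116 in limma). Of 12 lysosomal proteases, 7 were higher in MDMs (background 19.4%) and 3 in tumor cells (background 32.4%), of which 3 and 2 were called without each library. Ctss, the cathepsin that trims the invariant chain, was at 1362 and 1736 against 28.6 and 52.3 RPKM, while Ctsh, which processes surfactant protein, was at 157 and 163 RPKM in tumor cells against 16.6 and 23.7 RPKM, and Ctse, a cathepsin of stomach mucosa, at 61.6 and 36.9 against 5.03 and 2.87 RPKM.

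Of 11 tested matrix metalloproteinases and inhibitors, 4 were higher in tumor cells and 4 in MDMs, beside 32.4% and 19.4% of all genes. Under all scalings 2 and 4 of these calls were made, and without each library 1 and 4. Relative to the median the counts were 3 and 5. Mmp8, neutrophil collagenase, was at 115 and 36.5 RPKM in MDMs and 0.351 and 1.21 RPKM in tumor cells, Mmp9 at 36.7 and 22.8 against 0.165 and 0.6101 RPKM, and Mmp19 at 14.6 and 24.5 against 0.507 and 0.735 RPKM. Mmp15, a membrane type, was at 15.9 and 20.4 RPKM in tumor cells against 0.287 and 0.748 RPKM. Mmp13 was at 19.3 and 2.53 RPKM in tumor cell replicates 1 and 2 against 0.746 and 0.412 RPKM. The tumor cell libraries lay far apart here, and the call was lost without replicate 1 (adjusted p 0.0905 in limma) and with voom.

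Most genes of fatty acid synthesis were higher in tumor cells. Of 11 tested genes of fatty acid synthesis and desaturation, 9 were higher in tumor cells (background 32.4%), 7 of them under all scalings and 5 without each library (Fasn, Scd1, Scd2, Me1 and Srebf1), and none in MDMs. Scd1, the stearoyl-CoA desaturase, was at 97.9 and 148 RPKM in tumor cells and 4.57 and 6.38 RPKM in MDMs (log2 difference 4.45). Fasn, fatty acid synthase, was at 5.203 and 10.4 against 0.395 and 0.671 RPKM, Me1, malic enzyme, at 32.00 and 32.3 against 0.7196 and 1.91 RPKM, and Srebf1, the factor that drives the pathway, at 7.81 and 8.31 against 1.396 and 1.47 RPKM. Of 15 tested cholesterol synthesis genes, 12 were higher in tumor cells (background 32.4%, median 1.36), but 6 of them under all scalings and 1 without each library (Hmgcs1, 42.2 and 45.3 against 12.4 and 13.9 RPKM).

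Of 17 tested genes of triacylglycerol (TAG) synthesis and lipid droplets, 7 were higher in MDMs (background 19.4%), 4 of them without each library, and 2 in tumor cells (background 32.4%). G0s2, an inhibitor of the TAG lipase, was at 912 and 961 RPKM in MDMs and 11.7 and 14.3 RPKM in tumor cells, the widest of the list (log2 difference -6.17, SE 0.27). Both enzymes that make TAG from diacylglycerol were higher in MDMs, Dgat1 at 48.3 and 54.96 against 2.63 and 4.34 RPKM and Dgat2 at 15.5 and 12.9 against 1.04 and 0.621 RPKM. Mgll, which cleaves monoacylglycerol, was at 3.65 and 4.103 against 0.241 and 0.288 RPKM. Gpam and Agpat2, which act earlier in the pathway, were called higher in tumor cells, at 1.013 and 1.599 against 0.2601 and 0.335 RPKM and 6.49 and 5.49 against 1.196 and 1.64 RPKM, but Gpam was not called without either tumor cell library and Agpat2 was not without replicate 1 (adjusted p of up to 0.184 and 0.0717 in limma).

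Genes of lipid-laden macrophages and of efflux were higher in MDMs in 10 of 15 tested (background 19.4%), 8 without each library, and in tumor cells in 1. Gpnmb was at 65.5 and 36.8 RPKM in MDMs and 0.563 and 1.42 RPKM in tumor cells, Trem2, a lipid-sensing receptor, at 4.99 and 9.98 against 0.188 and 0.253 RPKM, and the cholesterol exporter Abcg1 at 12.4 and 11.5 against 0.843 and 1.18 RPKM. Npc2, which hands cholesterol out of the lysosome, was higher in tumor cells at 206 and 195 against 51.9 and 52.2 RPKM.

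Ferroptosis is cell death by peroxidation of membrane lipids, which glutathione and Gpx4 hold back. Gclc and Slc7a11, which serve the supply of glutathione, differed in opposite directions. Gclc, the catalytic chain of the first synthesis step, was at 166 and 241 RPKM in tumor cells and 6.63 and 7.798 RPKM in MDMs (log2 difference 4.78, SE 0.30, adjusted p 0.0001999 in limma), whereas Slc7a11, the cystine carrier, was at 1.09 and 2.51 RPKM in tumor cells and 54.5 and 52.9 RPKM in MDMs (log2 difference -4.93, adjusted p 0.000283 in limma). Gclm, the partner of Gclc, was not called at 4.92 and 5.06 against 3.58 and 2.98 RPKM. Acsl3, which activates the monounsaturated fatty acids that protect membranes, was at 28.6 and 21.4 against 2.31 and 2.74 RPKM. In all, 4 of 11 tested suppressors were higher in tumor cells and 3 in MDMs, shares near the 32.4% and 19.4% of all genes, with Nfe2l2, which encodes NRF2, at 89.8 and 102 against 79.2 and 75.6 RPKM and not called. Of 8 tested promoters of ferroptosis, 4 were higher in tumor cells and 3 in MDMs (background 32.4% and 19.4%), of which none of the 4 and 1 of the 3 were called without each library. Alox5, the lipoxygenase of leukotriene synthesis, was at 16.6 and 18.6 RPKM in MDMs and 0.304 and 0.594 RPKM in tumor cells. Acsl4, which activates polyunsaturated fatty acids, was at 31.96 and 40.6 against 13.3 and 12.3 RPKM, a call lost without tumor cell replicate 2 (adjusted p 0.0936 in limma).

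Iron storage and transport genes were MDM-higher in 5 of 12 tested (background 19.4%) and tumor-higher in 3 (background 32.4%), of which 4 and 1 were called without each library. Beside Fth1, Slc11a1, the iron transporter of phagosomes, was at 59.5 and 56.03 RPKM in MDMs and 0.854 and 1.203 RPKM in tumor cells, and the siderophore-binding protein Lcn2 at 91.8 and 28.02 against 7.22 and 7.42 RPKM. Aco1, the cytosolic iron sensor, was at 9.09 and 14.50 RPKM in tumor cells against 1.17 and 2.22 RPKM. Tfrc, the transferrin receptor, was at 9.97 and 15.04 against 3.39 and 2.98 RPKM, with a call lost without tumor cell replicate 2 (adjusted p 0.0782 in limma).

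Of 14 tested glutathione and NRF2 target genes, 6 were higher in tumor cells and 2 in MDMs, shares near the 32.4% and 19.4% of all genes. Gsta4, a transferase for lipid aldehydes, was at 331 and 242 RPKM in tumor cells and 2.71 and 15.8 RPKM in MDMs, Aldh1a1, an aldehyde dehydrogenase, at 153 and 224 against 2.54 and 7.42 RPKM, and Cbr2, the lung carbonyl reductase, at 76.4 and 114 against 1.08 and 4.702 RPKM. Gsr, which regenerates glutathione, was MDM-higher at 140.0 and 132 against 40.6 and 31.5 RPKM. Eicosanoid enzymes were MDM-higher in 7 of 12 tested (background 19.4%), 5 of them without each library, and tumor-higher in 1. Alox5ap, the helper protein of Alox5, was at 444 and 349.8 against 3.26 and 8.56 RPKM and Pla2g7, which cleaves platelet-activating factor, at 326 and 191 against 11.8 and 8.27 RPKM, whereas Ptges, the prostaglandin E synthase, was at 22.3 and 17.7 RPKM in tumor cells against 2.14 and 0.887 RPKM.

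The carriers Slc2a3 and Slc16a3 were higher in MDMs, while most genes of the cell cycle were not called. Of 18 glycolysis and hypoxia genes, 11 were not called, 5 were higher in MDMs (background 19.4%) and 2 in tumor cells (background 32.4%). Relative to the median of all genes the counts were 9 and 0, beside 26.0% and 18.8% of all genes. The sugar carrier Slc2a3 was at 51.97 and 67.1 RPKM in MDMs and 0.312 and 0.928 RPKM in tumor cells, and the lactate carrier Slc16a3 at 41.8 and 43.8 against 1.97 and 1.98 RPKM, while the enzymes between them, such as Eno1 (92.1 and 102 against 100.04 and 109 RPKM), were mostly not called. Of 13 tested replication and mitosis genes, 2 were higher in tumor cells (background 32.4%), 1 in MDMs (background 19.4%) and 10 were not called, among them Pcna at 41.1 and 34.2 against 36.1 and 46.3 RPKM. The tumor-higher calls were lost on leaving out a library, and 1 of them was made under all scalings. Mki67 was called higher in MDMs at 16.3 and 14.9 against 5.59 and 7.44 RPKM, but not without either tumor cell library, with an adjusted p of up to 0.164.

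Immediate early and heat shock genes, which can rise when tissue is dissociated, were called in all 15 tested. Of these, 11 were higher in tumor cells (background 32.4%) and 4 in MDMs (background 19.4%). Under all scalings 6 of the 11 and all 4 were called, and without each library 5 of the 11 and none of the 4. Hspa1a, the inducible HSP70, was at 383 and 471 RPKM in tumor cells and 21.2 and 30.6 RPKM in MDMs (log2 difference 4.05), Fos at 548 and 564 against 84.5 and 135 RPKM and Atf3 at 836 and 929 against 271 and 227 RPKM. The part of tissue handling in these values was not tested.

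**Figure D4:**
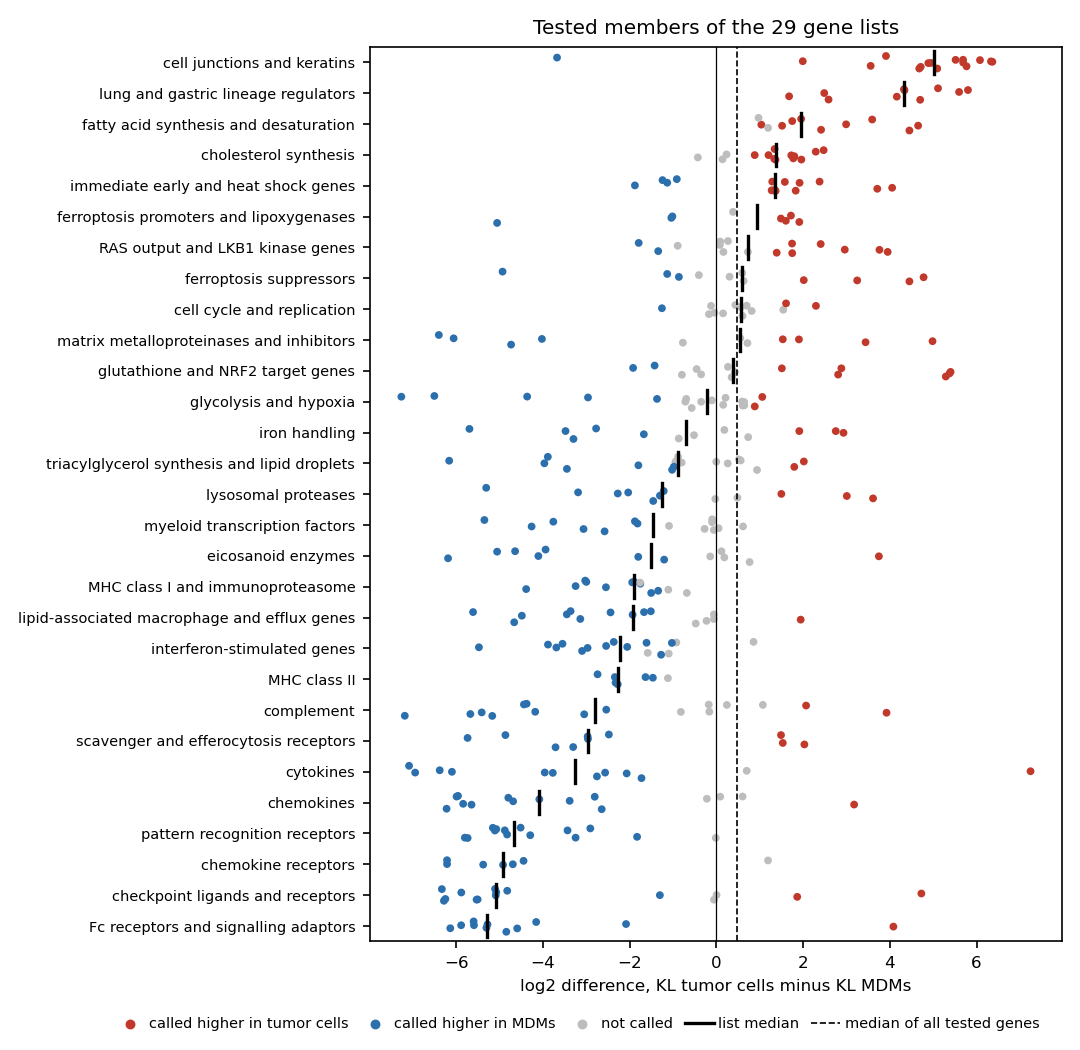
Log2 difference, KL tumor cells minus KL MDMs, of each tested member of the 29 gene lists, one row a list, red for members called higher in tumor cells, blue for members called higher in MDMs and gray for the rest. The bar marks the list median, from 5.02 in cell junctions and keratins to -5.28 in Fc receptors and signalling adaptors, and the dashed line marks the median of all tested genes at 0.47.

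Ligand and receptor genes were read as pairs. Of 55 pairs from a fixed list, 36 had both genes tested. In 6 pairs the ligand was called higher in tumor cells and the receptor in MDMs, and in 5 pairs the order was turned. Both genes were higher in MDMs in 10 pairs and in tumor cells in 2, and 13 pairs had a member that was not called. Of these 2, the pair of Bmp4 and Bmpr1a rested on a call of Bmpr1a that was made under 4 of the 8 scalings. The counts of pairs stand beside the 32.4% and 19.4% of all genes called higher in tumor cells and in MDMs, and were not tested against them. Such a pattern describes transcripts and not binding.

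From tumor cells to MDMs, Anxa1, which encodes annexin A1, was at 1530.4 and 1134 RPKM in tumor cells and 256 and 306 RPKM in MDMs, and its receptor Fpr2 at 0.144 and 0.537 against 34.95 and 16.8 RPKM. Sftpd, the surfactant collectin D, was at 889 and 1074 against 26.9 and 64.4 RPKM, and Sirpa, an inhibitory receptor that it can bind, at 1.07 and 2.595 against 63.4 and 58.6 RPKM. Both pairs stood on calls made without each library. Jag1 was at 11.5 and 14.4 against 1.597 and 1.94 RPKM and Notch2 at 2.84 and 3.51 against 16.8 and 13.6 RPKM. The complement gene Hc, which encodes C5, was at 2.22 and 3.41 against 0.495 and 0.762 RPKM beside C5ar1, and Gas6 at 8.700 and 13.6 against 1.43 and 4.61 RPKM beside Axl (1.26 and 3.11 against 10.2 and 25.8 RPKM) and Mertk. The calls of Hc and Gas6 were lost without either tumor cell library, with adjusted p values of up to 0.122 and 0.147, and that of Gas6 also under 2 scalings.

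From MDMs to tumor cells, Osm stood opposite Osmr, its receptor chain, at 2.64 and 3.75 RPKM in tumor cells and 0.297 and 0.7500 RPKM in MDMs, and Sema4d (34.97 and 19.00 RPKM in MDMs, 1.56 and 2.42 RPKM in tumor cells) opposite Plxnb2 (33.6 and 45.9 RPKM in tumor cells, 1.96 and 5.22 RPKM in MDMs). The pair of semaphorin and plexin was called without each library, and Osmr lost its call without tumor cell replicate 2 (adjusted p 0.0784 in limma). Il1r1, the receptor of Il1a and Il1b, was at 3.03 and 4.06 RPKM in tumor cells against 0.583 and 1.38 RPKM. Il18r1 was at 39.8 and 42.4 against 5.22 and 3.47 RPKM, while its ligand Il18 was at 14.8 and 48.8 RPKM in MDMs against 9.100 and 7.09 RPKM. The calls of Il1r1 and Il18 were lost without either tumor cell library, with adjusted p values of up to 0.1504 and 0.162, and under 1 and 2 scalings.

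Of the EGF family ligands in the pair list, Areg, Hbegf and Ereg were higher in tumor cells. Areg, amphiregulin, was at 1610.5 and 1421 against 36.8 and 76.8 RPKM in MDMs, Hbegf at 188 and 166 against 21.8 and 18.9 RPKM and Ereg at 49.5 and 44.5 against 3.05 and 3.201 RPKM. Nrg1, a ligand of Erbb3, was at 1.48 and 1.78 against 0.374 and 1.09 RPKM and was not called (adjusted p 0.0954 in limma) except without MDM replicate 2 and with a replicate block, and Tgfa has no row in the MDM table and was at 7.46 and 5.24 RPKM (deposited) in tumor cells. Their receptor gene Egfr was below the filter, at 0.582 and 0.806 RPKM in tumor cells and 0.161 and 0.194 RPKM in MDMs, and Erbb3, a related receptor, was at 11.5 and 17.7 RPKM in tumor cells against 0.368 and 1.04 RPKM. The pairs with both genes in MDMs included Csf1 with Csf1r (24.9 and 33.6 against 0.985 and 1.31 RPKM) and Tnf (174 and 59.9 against 17.6 and 12.9 RPKM) with Tnfrsf1b (102 and 52.3 against 4.81 and 6.38 RPKM).

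**Figure D5:**
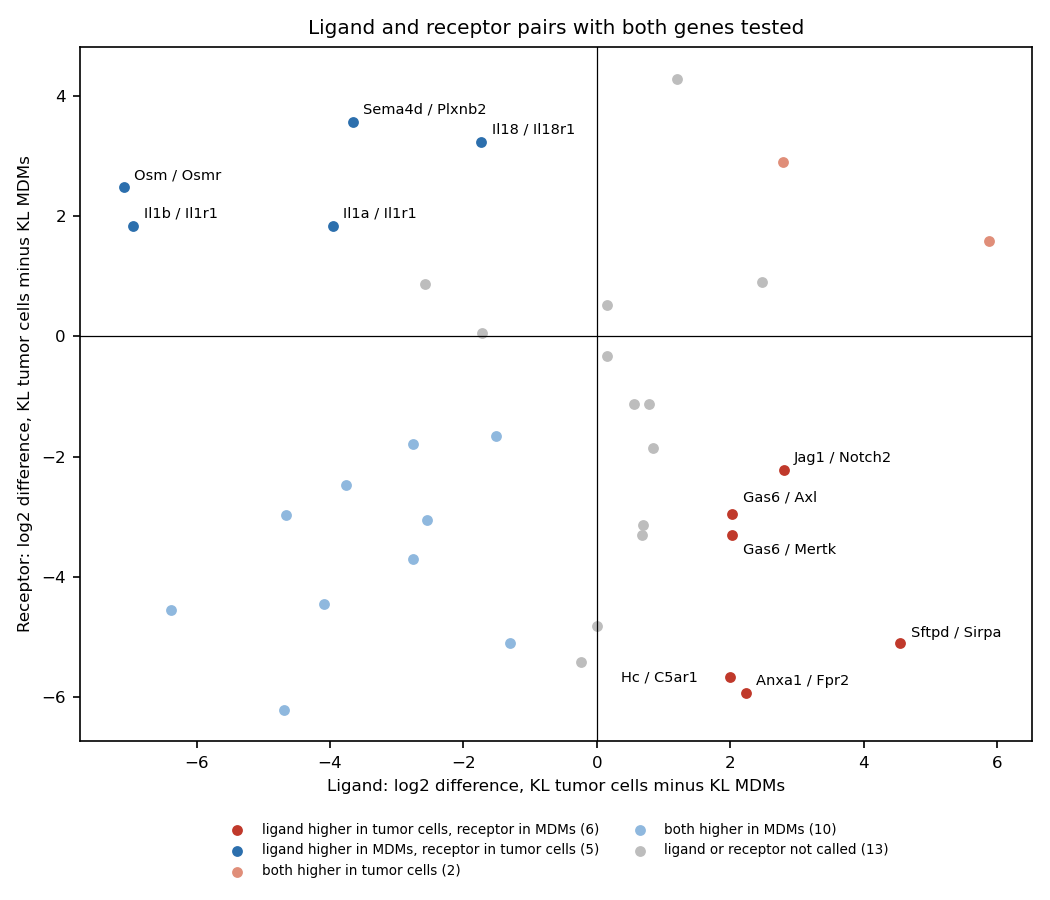
Log2 difference, KL tumor cells minus KL MDMs, of the ligand (horizontal axis) and the receptor (vertical axis) of the 36 pairs with both genes tested. Red points at the lower right are the 6 pairs with the ligand higher in tumor cells and the receptor in MDMs, and dark blue points at the upper left the 5 pairs of the reverse order, of which Osm and Osmr lie furthest to the left (-7.09 and 2.48).

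Some genes have a row in one table only and could not be compared. The tumor cell table had 3819 such genes, of which 1628 had at least 1 RPKM in both KL libraries, and the MDM table had 818, of which 321 did. The highest of the former were Mcpt1, a mucosal mast cell protease, at 1195 and 1167 RPKM (deposited), Cxcl17, a mucosal chemokine, at 211 and 272 RPKM and the dynein gene Dynlrb2 at 187 and 262 RPKM. Mcpt2 was at 125 and 148 RPKM. Why a row is missing is not given in the sources used here, and the transcript's level in the other population was not analysed here.

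The highest rows that stood in the MDM table alone included microRNA genes, with Mir6381 at 440.3 and 21.05 RPKM (deposited), Mir142 at 215 and 166 RPKM, Mir142b at 161 and 118 RPKM and Mir146 at 102 and 40.03 RPKM. Mir223, chosen with its values known as a microRNA gene of the myeloid lineage, was at 25.5 and 37.7 RPKM. The libraries hold poly(A) RNA, so these values read primary transcripts and not mature microRNAs. Mir142 and Mir142b lie on opposite strands of one locus and were counted without strand, so their values cannot be told apart. Among 44 tested microRNA genes, 20 were higher in MDMs (background 19.4%), 4 in tumor cells (background 32.4%) and 20 were not called. Mir147 and Mir22 were also chosen with their values known. Mir147 was at 17.2 and 7.49 RPKM in tumor cells and 1444 and 458 RPKM in MDMs (log2 difference -6.15), and Mir22 at 54.6 and 84.3 against 538 and 343 RPKM. Some mature products of these genes, from RefSeq on GRCm38.p6, are shown because the MDM-side microRNAs are known by their seeds, bases 2 to 8, in capitals. The selection holds 1 product each of Mir146, Mir147, Mir223 and Mir22 and none of Mir6381.
mmu-miR-142a-5p: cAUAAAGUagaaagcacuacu
mmu-miR-142a-3p: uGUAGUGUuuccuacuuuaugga
mmu-miR-142b: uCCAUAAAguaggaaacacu
mmu-miR-146a-5p: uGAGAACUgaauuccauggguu
mmu-miR-147-5p: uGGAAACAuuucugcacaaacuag
mmu-miR-223-3p: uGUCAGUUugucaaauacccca
mmu-miR-22-3p: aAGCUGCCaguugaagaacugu
The 7 seeds are all different, so no pair of the 7 printed sequences falls into the same seed family.

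Promoters of the genes at least 16-fold apart were read in the RefSeq table for GRCm38.p6, over the 250 bases before each start. Of the 11319 genes, 7907 matched by symbol, with 10134 promoters. The 268 tumor-higher genes gave 243 promoters of 179 genes, and the 519 MDM-higher genes 412 promoters of 337 genes. Each of 14 motifs was sought on both strands. GAGGAA, the core that PU.1 binds, was in 41.3% of MDM-higher promoters, 20.2% of tumor-higher promoters and 22.9% of all promoters. Its longer form GAGGAAGT, which holds GAGGAA, was in 12.1%, 2.06% and 2.71%. CCGCCC, the GC box, was in 27.7% of MDM-higher, 54.3% of tumor-higher and 57.2% of all promoters. TGTTTAC, a forkhead motif, was in 2.91%, 3.70% and 2.18%, and CTCAAG, the core that NKX2-1 binds, in 16.7%, 10.7% and 12.2%. TATAAA was in 10.9%, 8.64% and 6.36%, TGAGTCA, the AP-1 site, in 6.80%, 4.53% and 3.36%, TGTTTGC in 4.85%, 4.53% and 3.14%, and ATTTGCAT in 2.43%, 3.29% and 1.21%. The remaining 5 motifs (TTGCGCAA, TTCCGGAA, ACCGGTT, a palindromic E-box and an NF-kappaB site of 10 letters each) were each in at most 1.34% of promoters of any set. These shares describe letters and were not tested.

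Promoters of 3 MDM-side genes and 2 tumor-side genes are shown, 250 bases each on the plus strand, since they hold these letters. Capitals mark 1 motif in each, and matches to other motifs of the search are in lower case. The first 3 carry GAGGAAGT or its reverse complement.
S100a8 promoter, chr3:90668821-90669070: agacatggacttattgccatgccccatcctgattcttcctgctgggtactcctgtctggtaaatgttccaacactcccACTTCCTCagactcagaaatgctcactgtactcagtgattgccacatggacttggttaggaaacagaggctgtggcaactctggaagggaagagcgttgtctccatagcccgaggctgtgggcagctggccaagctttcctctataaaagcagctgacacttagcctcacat
Fcgr4 promoter, chr1:171018676-171018925: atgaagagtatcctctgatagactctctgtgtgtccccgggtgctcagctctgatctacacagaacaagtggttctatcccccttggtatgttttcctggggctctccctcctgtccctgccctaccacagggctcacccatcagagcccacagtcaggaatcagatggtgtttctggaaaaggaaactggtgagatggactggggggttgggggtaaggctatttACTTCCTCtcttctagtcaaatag
Havcr2 promoter, chr11:46454681-46454930: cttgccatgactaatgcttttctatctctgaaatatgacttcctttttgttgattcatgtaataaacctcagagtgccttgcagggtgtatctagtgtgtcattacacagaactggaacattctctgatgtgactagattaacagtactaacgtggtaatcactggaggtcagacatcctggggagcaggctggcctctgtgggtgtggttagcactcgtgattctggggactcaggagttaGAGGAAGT
Sftpb promoter, chr6:72304360-72304609: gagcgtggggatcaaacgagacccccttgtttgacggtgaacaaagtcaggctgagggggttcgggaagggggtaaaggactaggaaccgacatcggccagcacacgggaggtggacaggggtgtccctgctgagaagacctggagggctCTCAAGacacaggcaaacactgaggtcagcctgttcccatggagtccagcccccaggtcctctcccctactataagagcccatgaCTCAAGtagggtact
Il33 promoter, chr19:29924863-29925112: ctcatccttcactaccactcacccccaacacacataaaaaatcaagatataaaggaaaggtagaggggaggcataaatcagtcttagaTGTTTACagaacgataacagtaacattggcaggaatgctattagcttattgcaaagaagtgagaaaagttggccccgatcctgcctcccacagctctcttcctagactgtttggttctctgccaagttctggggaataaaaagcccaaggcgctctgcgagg
The match lay 172 bases before the start in S100a8, 24 in Fcgr4 and 8 in Havcr2. Fcgr4, an activating IgG receptor, was at 39.8 and 18.05 RPKM in MDMs and 0.169 and 0.665 RPKM in tumor cells. In Sftpb, the surfactant protein B gene, CTCAAG stood 100 and 15 bases before the start, and the gene was at 857 and 877 RPKM in tumor cells against 27.01 and 68.1 RPKM in MDMs. The forkhead letters of Il33 stood 162 bases before its start.

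The MDM libraries were set beside the KL TRM libraries to see which macrophage genes tell the tables apart. Of 10401 genes tested in limma over these 4 libraries, 23.1% were called higher in MDMs and 2.47% in TRMs. All 7 tested neutrophil markers were higher in MDMs, as were 4 of 8 tested markers of monocyte-derived macrophages (Ccr2, Cx3cr1 and C1qa among them) and 4 of 10 pan-macrophage markers. In TRMs 7 of 10 alveolar macrophage markers were higher, Ear2 and Chil3 among them, as were 2 of the 10 pan-macrophage markers, Mertk and Lyz2. The number of calls over these lists was 24 and fell to 9 without TRM replicate 1 and 11 without TRM replicate 2.

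The tumor cell minus MDM difference of KL was also set against that of KLG4, with 2 libraries of each population as well. Of 11814 genes, 503 (4.26%) had a larger and 1115 (9.44%) a smaller value in KL, 13.7% in all. The KLG4 tumor cell libraries held more leukocyte transcript, with a pan-leukocyte sum of 257 and 262 RPKM (deposited) against 24.6 and 34.4 RPKM (deposited) in KL tumor cells. All 10 genes furthest on the MDM side had a more negative difference in KL than in KLG4 by this test, but they were chosen by their KL difference, which is part of that value. The part of the leukocyte transcript in these values was not tested.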

How the data were processed

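Poly(A) RNA of sorted cells was sequenced as 150-base pairs without strand. Per the labels and the study's methods, the authors trimmed reads with Trim Galore 0.6.4, aligned them with HISAT2 2.0.5 to the mouse genome (Ensembl annotation of GRCm38), counted them per gene with featureCounts 2.0.0 without strand and deposited RPKM values, one table for each population. Tumor cells, MDMs and TRMs have columns for 12 of the 17 samples, and the other 5 samples were not analysed here. Columns of the authors' own comparisons (fold changes and p-values) were not used. Gene names that a spreadsheet had turned into dates (21 rows of the tumor cell table and 19 of the MDM table) were dropped.

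Whole reads could be recovered from the RPKM values and gene lengths (100% of values within 0.05 of a whole number, for genes below 2000 reads). Only 24.6% to 26.8% of read numbers below 30 were odd in the 4 libraries, so the totals may exceed the number of separate fragments. The totals of 36.6, 30.2, 18.6 and 10.4 M were lowest in the MDM libraries, and PCR copies are counted as reads. The part of depth in the precision of the libraries was not tested. Replicates differed by more than sampling noise (chi-square per gene 71.2 in tumor cells and 132 in MDMs).

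Log2(RPKM + 0.1) values of the 4 libraries were fitted with limma 3.58.1 (R 4.3.3) with a mean-variance trend and no block, and p-values were adjusted by Benjamini-Hochberg over 11319 genes. The fit was tested on simulated data. With 4000 of the 11319 genes changed, it recovered 30.6% of 2-fold and 99.3% of 16-fold changes, with 98 false calls, and with 200 genes changed it recovered 0 of 50 and 46 of 50. The same fit compared KL MDMs with KL TRMs, and the tumor cell minus MDM difference in KL with that in KLG4.

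Members, gene lists, marker lists and pairs were chosen with earlier results of these data known. Named genes are the 10 with the largest difference in each direction, with a mean of at least 50 RPKM in the higher population and no overlap, the 10 with the highest mean in each population, Gpx4, Stk11, the highest genes with a row in one table only, members of the lists, and genes said to be chosen with their values known. Gene models, pseudogenes, mitochondrial genes, immunoglobulin and T cell receptor segments and small RNAs were left out of the ranking. A few genes, 1 pair of ligand and receptor and an allele of the KL genotype are not reported here. Alternatives were the scaling (deposited values, quantile, TMM without weights, without the 50 highest genes), the pseudocount, the filter, the trend, all 12 libraries, voom on the recovered reads, a replicate block and leaving out each library. Scalings without nuclear copies of mitochondrial genes, without neutrophil markers and relative to the median of all genes were added after the data were seen.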

Additional observations from a re-analysis of the deposited data

Results flagged for a closer look

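For 12 of the 22 genes named by rank or as targets, the tumor cell minus MDM difference in KL differed from that in KLG4 by limma's interaction test, adjusted over 11814 genes, of which 13.7% passed. Ranked genes were chosen by their KL difference, which is part of each value.

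On the MDM side, the log2 difference in KL minus that in KLG4 was -6.09 in Rdh12, -5.95 in Ms4a4a, -5.23 in H2-M2, -3.83 in Stfa2l1, -3.81 in Tarm1, -3.62 in Hk3, -3.44 in Itgam, -3.37 in Ncf4, -3.20 in Cd300lf and -2.85 in Slfn1. The calls of Rdh12, H2-M2, Stfa2l1, Ncf4 and Itgam were made without each of the 8 libraries in turn. That of Cd300lf was lost without KL tumor cell replicate 1 (values from -3.79 to -2.60 over the 8), that of Tarm1 without 3 of the 8 (-4.42 to -3.19), that of Hk3 without 5 (-4.43 to -2.80), and those of Ms4a4a (-7.46 to -4.43) and Slfn1 (-3.74 to -1.96) without 6. On the common scale of these 8 libraries, KLG4 tumor cell libraries held 41.8 and 42.1 RPKM of Itgam, a leukocyte integrin, against 1.602 and 3.55 RPKM in KL. The pan-leukocyte sum of deposited RPKM was 257 and 262 in KLG4 tumor cells against 24.6 and 34.4 in KL, and its part in these differences was not tested.

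In Ttc9, the one tumor-side gene, the value was -1.42. Gpx4 had a value of 1.48. On the same scale of 8 libraries it was at 90.2 and 78.9 RPKM in KL and 54.8 and 60.1 RPKM in KLG4 tumor cells, and at 45.01 and 66.2 RPKM in KL and 102 and 106 RPKM in KLG4 MDMs. Both calls (Ttc9 and Gpx4) were lost without 5 of the 8 libraries, KL tumor cell replicate 1 and all KLG4 libraries, with values from -1.50 to -1.35 and from 1.20 to 1.76.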

How the results depend on the processing

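Of 5865 genes called, 3669 were higher in tumor cells and 2196 in MDMs. With a mean of at least 5 RPKM as the filter, 3533 were called (2071 and 1462), with fewer genes tested. The tumor-higher count was 2329 under TMM scaling, 2352 with voom and 2125 relative to the median, with MDM-higher counts of 2934, 3178 and 2941, so that 44.3%, 42.5% and 41.9% of calls were tumor-higher against 62.6%. With quantile scaling this share was 54.2%. Leaving out 1 library gave 2512 to 7451 calls, 1109 to 4720 tumor-higher and 1233 to 2731 MDM-higher, the lowest without a tumor cell library, where the lone sample is assumed to vary like the other group. Over the 8 libraries of the comparison with KLG4, 624 to 4113 genes were called against 1618, and the calls over macrophage markers between MDMs and TRMs ranged from 9 to 25 against 24. The causes were not tested.

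Of 200 tested genes named, 25 of the 184 called ones lost the call on leaving out a library. Of those not called, Gpx4, Cxcl16, Il6, Myl6, Nrg1 and Qrsl1 were called without MDM replicate 2 and Cd72 and Cd74 without MDM replicate 1. With all 12 libraries Gpx4, Gclm, Cxcl16, Myl6, Qrsl1 and Cd74 were called, and with the block Cd72, Cd74 and Nrg1. The sign of the log2 difference turned in genes that were not called. Under TMM, voom and centring it was -0.071, -0.12 and -0.076 in Ubb, -0.30, -0.35 and -0.31 in Cab39 and -0.16, -0.21 and -0.17 in Nfe2l2. It was 0.016 in Eno1 with quantile scaling and 0.015 in Ly96 without nuclear copies of mitochondrial genes. Without tumor cell replicate 2 it was 0.27 in Ly96, 0.01 in Pcna and 0.27 in Pparg, without MDM replicate 1 it was 0.16 in Ly96 (and -3.19 in Cd72 and -0.78 in Pparg), and without MDM replicate 2 it was 0.054 in Pcna, 0.59 in Pparg and 0.19 in Cd72.

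A replicate block gave 5913 calls (3687 tumor-higher and 2226 MDM-higher). Nothing in the labels says that equal replicate numbers pair the samples, and their deviations from the group means had a correlation of -0.07 over 11319 genes. The block ended no call of a named gene. With 2 libraries a group, small differences are the hardest to call, and the part of depth was not tested. All 12 libraries and the other settings kept the count of all calls within 1.5 times, except the filter on a mean of 5 RPKM and leaving out a tumor cell library.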

Other observations

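Epithelial transcripts were present in the MDM libraries beyond the genes named above. The pan-epithelial sum in MDMs was 79.3 and 258 RPKM and the AT2 sum 170 and 379 RPKM in replicates 1 and 2, so that replicate 2, the shallower library, held more of both. In the other direction, the pan-macrophage sum in tumor cells was 237 and 329 RPKM against 2872 and 3540 RPKM in MDMs.

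Markers of further cell types were low or mixed. Sdc1, the syndecan that plasma cells and epithelia carry, was at 176 and 175 RPKM in tumor cells and 4.81 and 7.13 RPKM in MDMs. It was the one tumor-higher gene of 5 tested plasma cell markers. Jchain, at 0.296 and 0.664 against 2.07 and 3.14 RPKM, and Ighm, at 0.564 and 2.95 against 11.8 and 7.88 RPKM, were called higher in MDMs, though neither without tumor cell replicate 1 (adjusted p 0.0957 and 0.0739 in limma). The fibroblast list summed to 12.4 and 19.6 RPKM in tumor cells and 2.71 and 12.7 RPKM in MDMs, and none of its 4 tested members was called in limma. The T cell list summed to 2.73 and 4.72 RPKM in tumor cells and 7.23 and 19.1 RPKM in MDMs, and most T, B and NK cell markers have no row in the MDM table.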
